A study of Mus musculus with 24 samples.

Results

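The response of control cells to Notch stimulation was measured in 6 of the 24 libraries of the series. They are 3 libraries of Phase 1 cells, cocultured with OP9-DLL4 stromal cells, and 3 of LPs (lymphoid progenitors) that stayed on OP9 cells, and they were chosen by their labels for stage and sgRNA. The series asks how RUNX factors and their partners act before and after Notch stimulation, and its other libraries carry sgCbfb in both stages or come from a second experiment on LPs alone. The values are reads of a gene scaled to 1000000 reads on genes per library (CPM) from QuantSeq, which reads the 3′ end of each polyadenylated RNA.

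All 6 libraries come from Cas9-LPs, a cell line made from progenitors of the fetal liver of mice that lacked *Ebf1* and carried a Cas9 knock-in at Rosa26. Both groups grew with SCF, Flt3L and IL-7 on mitomycin C-treated stroma, and both were transduced with pooled retroviral sgRNAs against luciferase (sgControl) that carry a human NGFR marker. Cells positive for hNGFR and CD45 were sorted 5 days after transduction, and the Phase 1 cells had by then received 2 days of stimulation by the Notch ligand DLL4. The study calls the replicates biologically independent, but the number of cell lines and animals behind them is not given in the sources used here. P values therefore measure the spread between cultures of an established line, pooled over these libraries and the sgCbfb libraries of the same experiment. In this line the loss of *Ebf1* holds cells back from the B lineage in both groups.

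Binding of DLL4 to a Notch receptor leads to cleavage of the receptor, and the freed intracellular domain enters the nucleus, where it joins the DNA-binding protein RBPJ and Mastermind-like coactivators to switch on target genes. In lymphoid progenitors that reach the thymus this signal starts the T-lineage program. TCF1 (encoded by *Tcf7*) and GATA3 come first, the progenitor program is shut down in steps, and Bcl11b later seals commitment.

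Between 1556951 and 1694302 reads per LP library and 1363263 and 1550041 reads per Phase 1 library fell on genes, so a count of 0 in a single library allows up to 1.77 to 2.20 CPM; such limits cover counting error only. Phase 1 replicate 3 stood apart. The standard deviation of its deviations from the group mean was 0.508 on the log2 scale over 8154 genes, against 0.251 to 0.353 in the other 5 libraries, and results that rest on it are given with and without it. Marker genes were compared with the labels. The summed level of 8 T-progenitor markers was 211 to 263 CPM in LPs and 1041 to 1140 CPM in Phase 1 cells, and *Ptprc*, which encodes the sorted CD45, was 547 to 764 CPM. The sum of 5 markers of committed T progenitors was also higher in Phase 1 cells, at 377 to 531 CPM against 89.8 to 107 CPM in LPs. Most of it was *Bcl11b* in both groups, while *Rag1* was not higher and *Ptcra*, *Cd3e* and *Lef1* had few reads. The sum of 6 lymphoid progenitor markers overlapped, at 504 to 804 CPM in Phase 1 cells against 706 to 861 CPM in LPs. Its members moved both ways, with *Flt3* and *Dntt* called lower and *Kit* and *Ly6d* called higher. Of 8 markers of OP9 cells, *Col1a2*, *Col3a1* and *Cxcl12* had no read in any of the 6 libraries, and the sum of all 8 was 8.99 to 11.8 CPM in LPs and 9.54 to 25.2 CPM in Phase 1 cells. *Ebf1* itself was 334 CPM in LPs and 174 CPM in Phase 1 cells, but whether its 3′ tags lie in the deleted part is not stated, so this does not check the deletion. *Ebf1* was not called with all libraries, but was called lower without LP replicate 3 or Phase 1 replicate 1.

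Phase 1 cells differed from LPs in both directions. Of 13239 genes tested, 218 (1.65%) were called higher and 231 (1.74%) lower in Phase 1 cells, at a Benjamini-Hochberg adjusted P value under 0.05 in limma, a more than 2-fold ratio of the group means and over 10 CPM on average in one of the groups. Together they were 449 genes (3.39%), and 858 genes (6.48%) passed the adjusted P value alone. The balance of the directions depended on single libraries. Without Phase 1 replicate 3, 235 genes were called higher and 218 lower, and 361 of the 449 calls were shared. The counts were 218 higher and 361 lower without Phase 1 replicate 1, 201 and 314 without Phase 1 replicate 2, and 198 and 148 without LP replicate 1. The rises were the larger by median. The median fold was 4.29 among higher genes and 3.07 among lower genes, and 49 genes rose over 16-fold whereas 4 fell by as much. All 218 higher genes had every Phase 1 library above every LP library, as had 9.77% of all genes tested, and 225 of the 231 lower genes were separate the other way, as were 12.1% of all genes tested.

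Some rising genes started from almost no transcripts. In 39 (17.9%) of the 218 higher genes each LP library held 3 reads or fewer, and 10 had no LP read at all. Of the 231 lower genes, 4 (1.73%) fell to 3 reads or fewer in each Phase 1 library. Genes with so few reads in one group pass the mean threshold only through the other. The matching shares over all genes tested were not counted, so these counts are a description. In pooled cells, fewer cells that express a gene and less RNA per cell cannot be told apart, and the same holds for gains. Fold changes from limma are on the log2(CPM + 1) scale, which understates those of low genes.

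**Figure D1:**
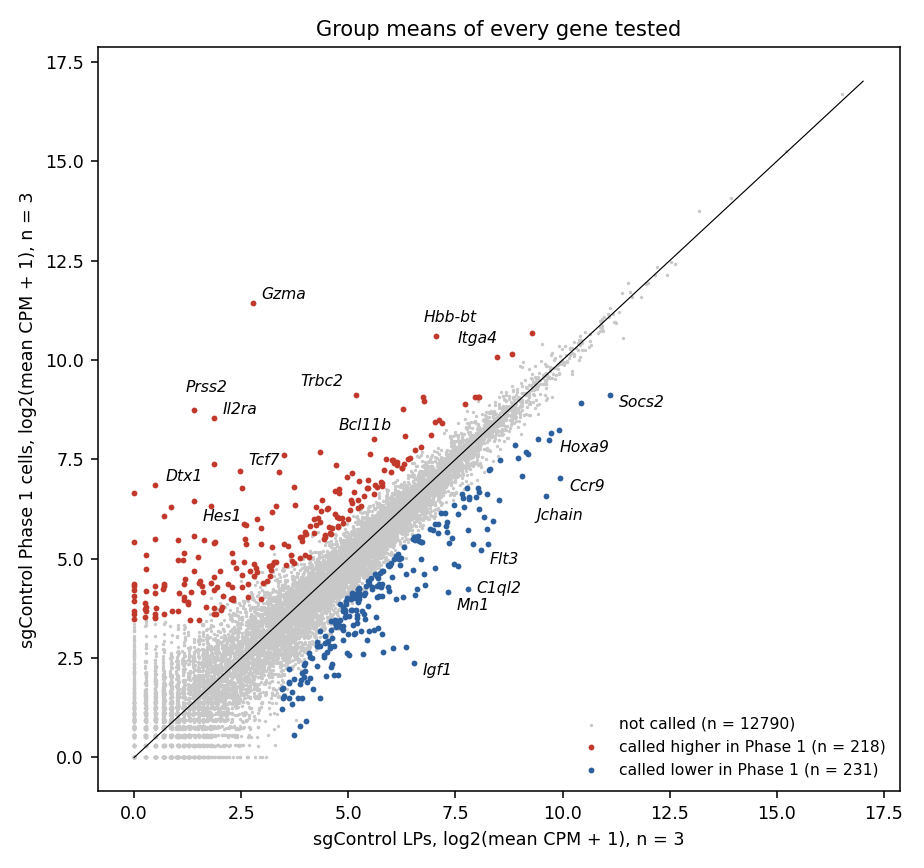
Mean level of each tested gene in sgControl LPs (x axis) and sgControl Phase 1 cells (y axis), both as log2(mean CPM + 1) of 3 libraries, with the line of equal levels. Red points are the 218 genes called higher and blue points the 231 called lower; *Gzma*, *Prss2* and *Il2ra* lie farthest above the line, and the points at the left edge are genes with few or no reads in LPs.

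Many direct Notch target genes rose, *Il2ra*, *Dtx1* and *Hes1* by the largest folds. Of 22 tested members of a list of known targets, 8 were called higher (against 1.65% of all genes tested) and none lower. The list's median log2 fold change was 0.93 against -0.07 over all genes tested, or 1.37 against -0.04 as a log2 ratio of mean CPM with groups of no read set to the floor of 3 reads. *Il2ra* (ENSMUSG00000026770, chromosome 2, 11642807 to 11693193 on GRCm38), which encodes the CD25 chain of the IL-2 receptor, had 4.72, 2.48 and 0.642 CPM in the LP libraries and 410.1, 355 and 348 CPM in the Phase 1 libraries. Every Phase 1 library was far above every LP library, and the mean rose 142-fold (log2 fold change 6.86, standard error 0.32, limma with Benjamini-Hochberg adjusted P = 1.7e-12). *Dtx1* (ENSMUSG00000029603, chromosome 5, 120680202 to 120711927), which encodes the Notch regulator Deltex-1, went from 1.18, 0 and 0 CPM to 104, 104 and 135 CPM. With 2 reads in all LP libraries together against 493 in Phase 1, the ratio was 277-fold (exact 95% counting interval 76.3 to 2294). *Hes1*, a transcriptional repressor and a classic Notch target, rose from 2.95, 0 and 1.93 CPM to 98.1, 103 and 56.5 CPM, with the lowest Phase 1 value in replicate 3 (log2 fold change 5.22, standard error 0.46, limma with Benjamini-Hochberg adjusted P = 5.6e-08).

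Feedback and receptor genes among the targets rose too. *Nrarp*, whose product is induced by Notch and dampens it, rose from 4.91 ± 2.44 to 57.9 ± 18.1 CPM (SD, n = 3), with an adjusted P value of 3.6e-05 in limma (Benjamini-Hochberg). Its exons share 2051 bases with an antisense gene whose reads could not be told apart, since the strand setting of the counting is not stated. The same holds for *Notch1*, *Notch3*, *Lcp2*, *Runx2*, *Itga4*, *Cox6a2*, *Tapbp*, *Tap2*, *Cdc20*, *Mxd4*, *Angpt1*, *Dusp5*, *Zfp36l1*, *Il1rap*, *Bach2*, *Cd247*, *Hoxa3*, *Hoxa7*, *Bcl2l14*, *Lztfl1*, *Heg1* and *Muc13* among the called genes that follow. Among those not called it holds for *Hes5*, *Dll4*, *Lef1*, *Runx1*, *Gfi1*, *Cd3e*, *Trdc*, *Bcl11a*, *Lyl1*, *Rag2*, *Vpreb1*, *Mpo*, *Csf1r*, *Ccnd2*, *Cdk6*, *Hmgcs1* and *Ctcf*. *Notch3* rose from 2.45 ± 2.85 to 20.04 ± 4.65 CPM and the receptor gene *Notch1* from 263 ± 56.3 to 534 ± 22.2 CPM (limma, Benjamini-Hochberg adjusted P = 0.00083 and 8.6e-06). *Notch1* only just passed the fold threshold at 2.03-fold, and lost the call without LP replicate 2, LP replicate 3 or Phase 1 replicate 1.

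Other targets did not pass the test. *Myc* was 20.1, 26.0 and 26.3 CPM in LPs and 11.3, 32.3 and 19.8 CPM in Phase 1 cells, with overlap between the groups (adjusted P = 0.69 in limma, Benjamini-Hochberg). *Hes5* had 5 reads in LPs and 19 in Phase 1 cells, and *Ptcra*, which encodes the pre-T-cell receptor α chain, had 2 and 25, none of the latter in Phase 1 replicate 3. Without that library the log2 fold change of *Ptcra* was 2.77 in place of 1.70, still under the mean threshold (adjusted P = 0.0041 and 0.17 in limma, Benjamini-Hochberg). *Heyl* had 1 read in all. *Il7r*, which encodes the IL-7 receptor, was lower in every Phase 1 library, from 275 ± 45.2 to 156 ± 17.7 CPM (limma, Benjamini-Hochberg adjusted P = 0.0012), a change of 1.76-fold that stayed under the fold threshold.

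Of the pathway's own machinery, 2 receptor genes rose and a coactivator gene fell. Of 24 tested receptors, ligands and processing enzymes, *Notch1* and *Notch3* were called higher and none lower (1.65% and 1.74% over all genes tested), with a median log2 fold change of -0.18. *Notch2* was 38.5 CPM in LPs and 29.5 CPM in Phase 1 cells (limma, Benjamini-Hochberg adjusted P = 0.41), and *Dll4*, which the stroma supplies, had at most 1 read in any library. Of 25 nuclear complex members and corepressors, *Maml3*, a Mastermind-like coactivator, was called lower, from 136 ± 47.7 to 49.3 ± 1.87 CPM. *Rbpj* was 68.8 CPM in LPs and 68.0 CPM in Phase 1 cells.

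**Figure D2:**
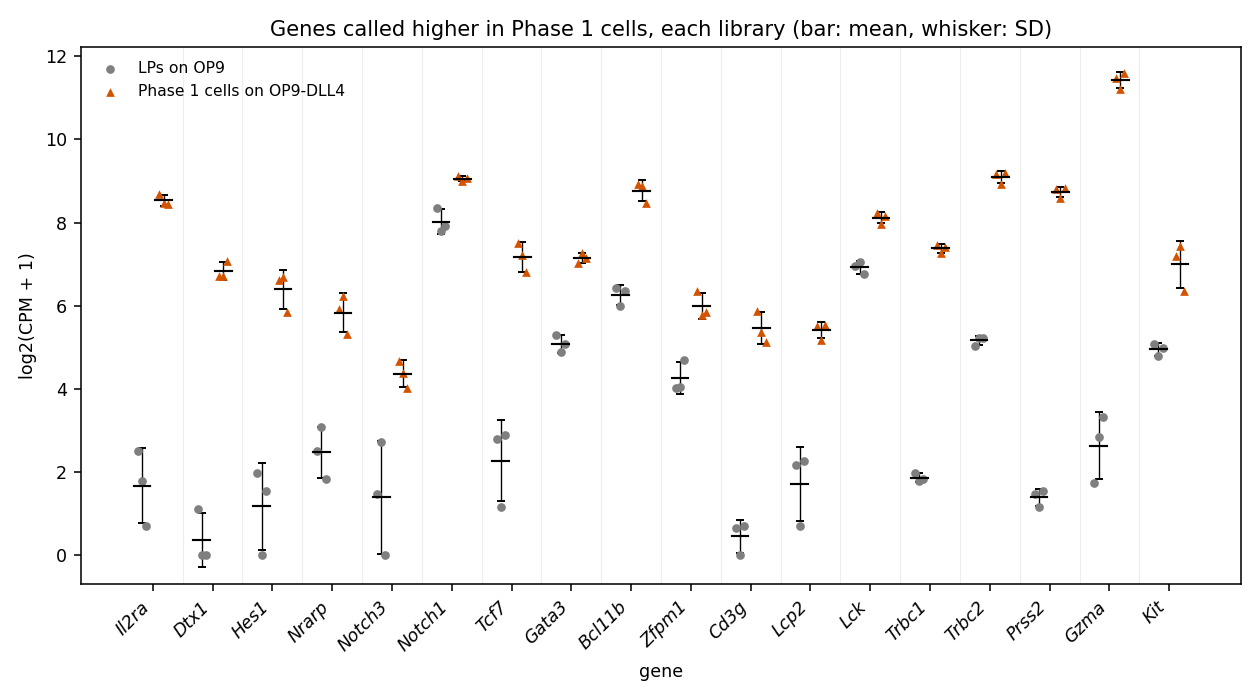
Level of 18 genes called higher in Phase 1 cells, as log2(CPM + 1), in each LP library (grey circles) and each Phase 1 library (orange triangles), with the mean as a bar and the SD as a whisker (n = 3). The groups are apart for every gene shown, and *Gata3*, *Bcl11b*, *Lck* and *Notch1* were well above 0 in LPs while *Dtx1*, *Cd3g* and *Prss2* were near it.

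*Tcf7* and *Gata3*, the early T-lineage regulators, rose, and so did *Bcl11b*. Of 33 T-lineage transcription factors tested, 4 were called higher and 3 lower (1.65% and 1.74% over all genes tested). *Tcf7* (ENSMUSG00000000782, chromosome 11, 52252371 to 52283014) went from 5.90, 1.24 and 6.42 CPM in LPs to 183, 149 and 111 CPM in Phase 1 cells. The groups were far apart, with a 32.6-fold rise of the mean (log2 fold change 4.90, standard error 0.49, limma with Benjamini-Hochberg adjusted P = 3.7e-07). *Gata3* was already read in LPs, at 38.4, 28.5 and 32.8 CPM, and rose to 131, 152 and 142 CPM (log2 fold change 2.07, standard error 0.19, limma with Benjamini-Hochberg adjusted P = 1.2e-07). Its exons, too, share 155 bases with an antisense gene.

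The commitment factor gene *Bcl11b* rose 5.74-fold, from 85.6, 62.5 and 80.9 CPM to 489, 470.3 and 356 CPM (log2 fold change 2.50, standard error 0.25, limma with Benjamini-Hochberg adjusted P = 4e-07). *Zfpm1*, which encodes the GATA cofactor FOG1, rose from 18.6 ± 5.56 to 63.7 ± 14.6 CPM. The other way, *Satb1*, a genome organizer, fell from 848 ± 28.8 to 287 ± 21.2 CPM with every library below the LP range (log2 fold change -1.56, standard error 0.10, limma with Benjamini-Hochberg adjusted P = 7.7e-10). *Bach2* fell from 63.5 to 22.3 CPM. *Runx2* fell from 52.7 to 24.1 CPM and was not called without Phase 1 replicate 3, LP replicate 1 or with only these groups in the fit. *Runx1* was 386 CPM in LPs and 278 CPM in Phase 1 cells and *Runx3* 286 CPM in LPs and 352 CPM in Phase 1 cells, both short of a 2-fold change, and *Lef1*, which acts later in T-cell development, had 4 reads in LPs and 12 in Phase 1 cells. *Gfi1*, a transcriptional repressor, had 1.77, 1.86 and 3.85 CPM in LPs and 29.6, 16.1 and 0 CPM in Phase 1 cells. It was not called with all libraries (log2 fold change 1.26; limma, Benjamini-Hochberg adjusted P = 0.43), and was called higher without Phase 1 replicate 3 (log2 fold change 2.76; adjusted P = 0.00074) and with edgeR on all libraries.

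Components of the T-cell receptor complex and its signalling chain were the list with the highest median. Of 34 tested members 11 were called higher and none lower (1.65% and 1.74% over all genes tested). The median log2 fold change was 1.22 (1.48 as the log2 ratio with the floor). Of the 34, 21 had every Phase 1 library above every LP library, as had 9.77% of all genes tested. *Cd3g* (ENSMUSG00000002033, chromosome 9, 44969572 to 44980431), which encodes a CD3 chain of the receptor, had 0.590, 0 and 0.642 CPM in LPs and 57.9, 40.6 and 33.7 CPM in Phase 1 cells. With 2 LP reads the ratio was 107-fold (exact 95% counting interval 29.3 to 893). Its neighbour *Cd3d* rose from 4.70 to 18.6 CPM but lost the call in 9 of the alternative fits, each of the 6 that left out a library among them. *Cd3e* was 0.617 CPM in LPs and 6.57 CPM in Phase 1 cells and stayed under the mean threshold. *Thy1*, an early surface marker of T-lineage cells, was higher in every Phase 1 library, from 188 ± 31.4 to 342 ± 36.9 CPM, but under 2-fold with all libraries, and was called without LP replicate 2. Downstream of the receptor, the adaptor gene *Lcp2* (SLP-76) rose from 3.54, 0.619 and 3.85 CPM to 44.5, 35.5 and 45.5 CPM and *Rasgrp1*, a Ras activator, from 1.83 to 20.1 CPM. *Lck*, the kinase that starts receptor signalling, was already at 123, 133 and 107 CPM in LPs and rose to 298, 250.3 and 286 CPM (log2 fold change 1.19, standard error 0.22, limma with Benjamini-Hochberg adjusted P = 0.0013). *Cd247*, which encodes the ζ chain, rose from 5.14 to 40.6 CPM and *Ctla4*, an inhibitory receptor, from 0.600 to 17.9 CPM.

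The receptor loci themselves did not move as one. At the *Tcrb* locus on chromosome 6, *Prss2*, *Trbc1* and *Trbc2* lie side by side between 41521787 and 41548352 and all 3 rose. *Trbc2* went from 31.9, 36.5 and 36.6 CPM in LPs to 575, 490.3 and 588 CPM in Phase 1 cells, and *Trbc1* from 2.95, 2.48 and 2.57 CPM to 174, 152 and 171 CPM. The groups were wide apart for both (log2 fold change 5.51, standard error 0.36, limma with Benjamini-Hochberg adjusted P = 7.7e-10 for *Trbc1*). The 2 constant regions are near-identical, as are the genes of the trypsin family to which *Prss2* belongs, so the split of reads between copies is uncertain. *Prss2*, a trypsinogen gene that sits inside the locus, rose from 1.77, 1.24 and 1.93 CPM to 445, 387 and 453 CPM, 260.4-fold in the means. The α chain constant region *Trac* went the other way, from 28.9, 29.7 and 32.1 CPM to 8.47, 2.58 and 4.401 CPM, with no overlap (log2 fold change -2.46, standard error 0.47, limma with Benjamini-Hochberg adjusted P = 0.0016). Of the γ chain regions *Trgc4* rose from 64.5 to 179 CPM, while *Trgc1* and *Trgc2* were 335 CPM in LPs and 355 CPM in Phase 1 cells and 409 CPM in LPs and 556 CPM in Phase 1 cells, and *Trdc* of the δ chain was 338 CPM in LPs and 398 CPM in Phase 1 cells, none of them called.

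Promoter sequences of the rising genes were read from RefSeq (GRCm38.p6) and searched for GTGGGAA, a common form of the RBPJ binding motif, on both strands of the 250 bases before the gene start. Of the 8 direct targets called higher 7 had a sequence, and none of the 7 held these letters in that window. The one without a sequence was *Hes1*, so it was not searched, and neither were other forms of the motif or longer regions. Across 32851 promoter windows 5.42% held them. A share among all higher genes is void, since only 157 of the 218 genes (72.0%) matched a sequence. The 3 risers with the largest change that held the motif, picked after the values were seen, are *Cd3g* (chr9:44980432-44980681, minus strand), *Lair1* (chr7:4063205-4063454, minus strand) and *Bcl2l14* (chr6:134396079-134396328, plus strand), shown 5′ to 3′ with the motif in capitals.
Cd3g: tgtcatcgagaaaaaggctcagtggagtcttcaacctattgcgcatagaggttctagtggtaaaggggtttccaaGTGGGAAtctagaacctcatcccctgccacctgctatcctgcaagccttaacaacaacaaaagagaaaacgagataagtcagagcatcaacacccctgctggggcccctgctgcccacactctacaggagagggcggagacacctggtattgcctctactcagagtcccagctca
Lair1: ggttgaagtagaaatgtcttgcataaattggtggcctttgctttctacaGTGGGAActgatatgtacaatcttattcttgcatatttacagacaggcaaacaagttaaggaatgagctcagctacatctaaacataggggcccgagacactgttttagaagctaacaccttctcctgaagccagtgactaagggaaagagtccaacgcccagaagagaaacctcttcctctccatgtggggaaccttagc
Bcl2l14: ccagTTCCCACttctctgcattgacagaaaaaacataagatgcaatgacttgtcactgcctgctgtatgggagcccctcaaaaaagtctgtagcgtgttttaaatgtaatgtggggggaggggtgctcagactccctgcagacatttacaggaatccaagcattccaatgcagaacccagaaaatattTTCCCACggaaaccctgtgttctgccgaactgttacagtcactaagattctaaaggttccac
The motif starts 175 bases before the *Cd3g* start and 201 before that of *Lair1*, and in *Bcl2l14* it occurs as TTCCCAC, the other strand's letters, 246 and 62 bases before the start. *Lair1*, an inhibitory collagen receptor, had 1 read in LPs and 52.2, 37.4 and 9.54 CPM in Phase 1 cells, a ratio of 163-fold (exact 95% counting interval 28.8 to 6480.3). *Bcl2l14*, a Bcl2 family gene, was at 0.590, 0 and 0 CPM in LPs and 14.1, 10.3 and 12.5 CPM in Phase 1 cells. A match of letters is a description and not a site of binding.

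More progenitor transcription factors fell than rose. Of 35 progenitor transcription factors tested, 8 were called lower and 2 higher (1.74% and 1.65% over all genes tested). The median log2 fold change was -0.36, and 16 of the 35 had every Phase 1 library below every LP library (12.1% of all genes tested had). *Hoxa9* (ENSMUSG00000038227, chromosome 6, 52223100 to 52231089), a homeobox factor of early progenitors, fell from 889, 775 and 797 CPM in LPs to 273, 252 and 235 CPM in Phase 1 cells. The libraries were far from overlap (log2 fold change -1.69, standard error 0.11, limma with Benjamini-Hochberg adjusted P = 7.7e-10). In the same cluster *Hoxa10* fell from 219 to 51.5 CPM, *Hoxa5* from 334 to 61.1 CPM and *Hoxa7* from 217 to 108 CPM, and *Hoxa3*, which was named after its values were seen, fell from 43.6 to 8.02 CPM. *Mef2c*, a lymphoid and myeloid progenitor factor, fell from 1037, 923 and 924 CPM to 246, 291 and 359 CPM (log2 fold change -1.70, standard error 0.12, limma with Benjamini-Hochberg adjusted P = 3.2e-09).

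*Mn1*, a transcriptional cofactor, fell 9.53-fold, from 183, 144 and 154 CPM to 26.1, 9.68 and 14.7 CPM, the deepest fall of the list. *Sox6* fell from 38.3 to 8.04 CPM. Not all progenitor factors followed. *Spi1*, which encodes PU.1, was 95.02, 62.5 and 76.4 CPM in LPs and 79.1, 94.8 and 117 CPM in Phase 1 cells, with overlap between the groups (adjusted P = 0.37 in limma, Benjamini-Hochberg). *Bcl11a* was higher in every Phase 1 library, from 136 ± 18.8 to 221 ± 8.99 CPM, but under 2-fold (limma, Benjamini-Hochberg adjusted P = 0.0043). *Lyl1* was 106 CPM in LPs and 141 CPM in Phase 1 cells, *Hhex* 42.9 CPM in LPs and 45.9 CPM in Phase 1 cells and *Lmo2* 8.77 CPM in LPs and 3.32 CPM in Phase 1 cells, none of them called. *Nfe2* and *Klf4* rose, from 6.75 to 40.7 CPM and from 17.95 to 57.0 CPM.

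Among progenitor receptors the cytokine receptors *Flt3* and *Kit* moved in opposite directions. Their ligands, Flt3L and SCF, were added to the cultures of both groups. *Flt3* (ENSMUSG00000042817, chromosome 5, 147330741 to 147400489) fell from 284, 279 and 255 CPM in LPs to 36.7, 56.1 and 15.4 CPM in Phase 1 cells. Its lowest value was in Phase 1 replicate 3, and without that library the log2 fold change was -2.56 in place of -3.06, called in either case (limma, Benjamini-Hochberg adjusted P = 1.6e-07 with all libraries). *Kit* (ENSMUSG00000005672, chromosome 5, 75574916 to 75656722) rose from 33.1, 26.6 and 30.8 CPM to 145, 172 and 80.7 CPM, again with the lowest Phase 1 value in replicate 3, but above every LP library (log2 fold change 2.04, standard error 0.22, limma with Benjamini-Hochberg adjusted P = 1.3e-06). Of 26 surface receptors tested 4 were called higher and 1, *Flt3*, lower (1.65% and 1.74% over all genes tested). *Ly6a*, which encodes Sca-1, rose from 32.1 to 74.5 CPM.

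**Figure D3:**
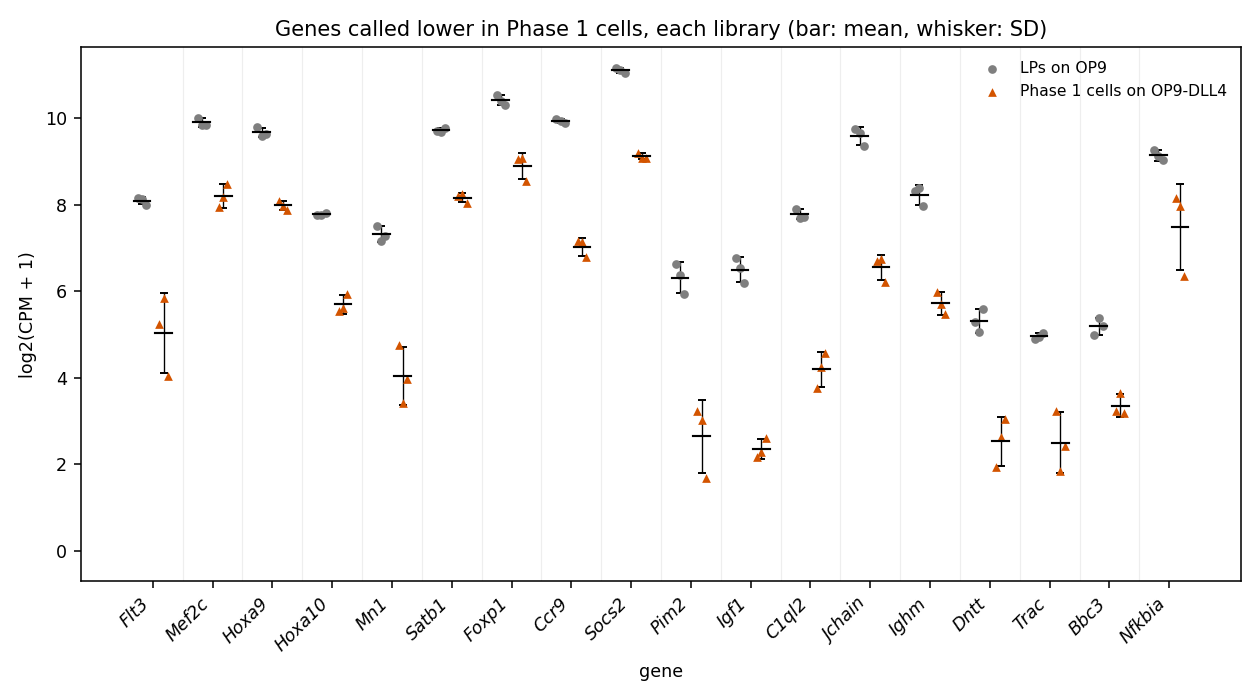
Level of 18 genes called lower in Phase 1 cells, as log2(CPM + 1), in each LP library (grey circles) and each Phase 1 library (orange triangles), with the mean as a bar and the SD as a whisker (n = 3). Every gene shown had its Phase 1 libraries below its LP libraries, and *Flt3*, *Pim2* and *Nfkbia* had the widest Phase 1 spread.

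*Socs2* and *Pim2*, which cytokine signals induce, fell. Of 36 cytokine receptor and JAK-STAT genes tested, 3 were called higher and 4 lower (1.65% and 1.74% over all genes tested). *Socs2*, which encodes an inhibitor induced by STAT5, fell from 2297, 2222 and 2123 CPM in LPs to 589, 546 and 541 CPM in Phase 1 cells, the largest loss in CPM of any called gene (log2 fold change -1.98, standard error 0.09, limma with Benjamini-Hochberg adjusted P = 1.7e-12). *Pim2*, a STAT-induced survival kinase, fell 13.6-fold, from 98.6, 82.3 and 60.4 CPM to 8.47, 7.10 and 2.20 CPM. *Il12rb2*, a chain of the IL-12 receptor, rose from 6.75 to 53.5 CPM, and its exons share 1519 bases with the antisense gene *Serbp1*.

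Homing and adhesion genes moved both ways. Of 36 tested, 6 were called higher and 2 lower (1.65% and 1.74% over all genes tested). *Ccr9* (ENSMUSG00000029530, chromosome 9, 123678439 to 123784330), the receptor for the thymic chemokine CCL25, fell from 1022, 989 and 955 CPM to 142, 141 and 110.0 CPM with narrow groups (log2 fold change -2.92, standard error 0.14, limma with Benjamini-Hochberg adjusted P = 2.5e-12). *Lztfl1*, which lies within the bounds of *Ccr9* on the opposite strand, fell to the same extent, from 305 to 40.4 CPM (log2 fold change -2.93), and whether reads of one were counted on the other cannot be told apart. The integrin gene *Itga4*, which encodes the α4 chain that binds VCAM-1, rose from 396, 359 and 299 CPM to 1241, 1219 and 775 CPM, and its partner gene *Itgb7* from 79.2 to 270.4 CPM. *Itgae*, which encodes CD103, was at 1 read in LPs and 12.8 CPM in Phase 1 cells. *Cd69* fell from 52.3 to 19.3 CPM.

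Cytotoxic and innate lymphoid genes held the rise with the largest log2 fold change of all genes, that of *Gzma*. Of 29 tested 8 were called higher and none lower (1.65% and 1.74% over all genes tested), with a median log2 fold change of 0.54 (0.70 with the floor). *Gzma* (ENSMUSG00000023132, chromosome 13, 113093825 to 113100981), which encodes the protease granzyme A, went from 2.36, 6.19 and 8.99 CPM in LPs to 2837, 2378 and 3093 CPM in Phase 1 cells. Every Phase 1 library lay far above every LP library, and the mean rose 474-fold (log2 fold change 8.79, standard error 0.39, limma with Benjamini-Hochberg adjusted P = 1.7e-12). *Nkg7*, a cytotoxic granule gene, rose from 7.67, 10.5 and 10.3 CPM to 140.5, 115 and 175 CPM and *Tnfrsf9*, which encodes the costimulatory receptor 4-1BB, from 2.08 to 43.6 CPM. *Ccl5* rose from 1.25 to 19.7 CPM. *Zbtb16*, which encodes the innate-like T-cell factor PLZF, reached 28.2 CPM in Phase 1 cells. In LPs it held 29 of the 4866293 reads on genes of all libraries together. Of the E protein antagonists that favour innate fates, *Id2* went from 165 ± 21.7 to 268 ± 30.8 CPM (limma, Benjamini-Hochberg adjusted P = 0.0038), higher in every Phase 1 library and under 2-fold.

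Genes of other lineages moved both ways. Of 37 B-lineage and early lymphoid genes tested, 7 were called higher and 3 lower (1.65% and 1.74% over all genes tested). *Dntt*, which encodes terminal transferase, fell from 38.4, 32.2 and 47.5 CPM to 2.82, 5.16 and 7.33 CPM, and *Ighm*, the immunoglobulin μ region, from 319.9, 336 and 249.8 CPM to 62.8, 51.6 and 43.3 CPM. *Ly6d*, a surface marker of lymphoid progenitors, rose from 144 to 341 CPM, a call lost in 5 alternative fits, among them those without LP replicate 2, LP replicate 3 or Phase 1 replicate 1. The MHC class II genes *H2-Aa* and *H2-Ab1* rose from near 0, *H2-Aa* from 2 reads to 15.5, 21.3 and 19.8 CPM. The recombination genes *Rag1* and *Rag2* were 20.7 CPM in LPs and 15.7 CPM in Phase 1 cells and 12.1 CPM in LPs and 20.5 CPM in Phase 1 cells, neither called, and *Cd79a*, a defining B-cell gene, had no read in the 6 libraries. The surrogate light chain genes *Vpreb1* and *Igll1* had at most 6 reads in either group.

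Of 18 plasmacytoid dendritic genes, 4 were called lower (*Ccr9*, *Cox6a2*, *Dntt* and *Runx2*) and *Ly6d* higher (1.74% and 1.65% over all genes tested). Of these called genes, *Cox6a2* alone stands on no other list. *Tcf4*, which encodes the E protein E2-2, was lower in every Phase 1 library, from 215 ± 36.5 to 122 ± 20.1 CPM, under 2-fold. *Cox6a2* fell from 606, 621 and 541 CPM to 197, 226 and 166 CPM. Of 37 myeloid genes 4 were called in each direction (1.65% higher and 1.74% lower over all genes tested). *Adgre1*, which encodes F4/80, fell from 60.3 to 17.3 CPM, and *Emilin2* and *S100a4* rose from 1.04 to 30.3 CPM and from 212 to 479 CPM, while the 5 defining markers *Mpo*, *Elane*, *Lyz2*, *Csf1r* and *Itgam* summed to between 13.002 and 26.0 CPM in LPs and 24.5 to 41.1 CPM in Phase 1 cells.

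A few genes on the mast and red cell lists rose, where 1.65% of all genes tested were called higher. Of 17 mast, basophil and eosinophil genes only 6 passed the filter on low values, and of these *Cpa3*, a mast cell protease, and *Kit* were called higher. *Cpa3* had 0, 1.86 and 0 CPM in LPs and 71.3, 48.4 and 80.0 CPM in Phase 1 cells, a ratio of 107-fold (exact 95% counting interval 36.2 to 521). Of 29 erythroid and megakaryocyte genes 10 passed, and *Hbb-bt*, *Nfe2* and *Zfpm1* were called higher. The remaining 4 and 7 tested members of the lists were not called. *Kit*, *Nfe2* and *Zfpm1* also stand on the progenitor or T-lineage lists, and the study counts all of them among Notch-regulated T-signature genes. Of the called genes, *Cpa3* and *Hbb-bt* alone stand on no other list. *Hbb-bt*, a β-globin gene, went from 109.8, 157 and 128 CPM to 1564, 1549 and 1585 CPM (log2 fold change 3.58, standard error 0.11, limma with Benjamini-Hochberg adjusted P = 4e-15), whereas its near-identical neighbour *Hbb-bs* had 2 reads in all, so how the counting split reads between the pair is uncertain. The part of a few cells of such types in these values was not tested.

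Interferon-induced genes of several families rose. Of 35 tested, 7 were called higher (1.65% of all genes tested) and none lower (1.74%), the median log2 fold change was 0.95 (1.06 with the floor), and 17 had every Phase 1 library above every LP library (9.77% of all genes tested). The *Ifitm* genes encode membrane proteins that block viral entry, and *Ifitm3* had the largest log2 fold change of the list. *Ifitm1* rose from 629, 658 and 572 CPM to 1612, 1483 and 1802 CPM (log2 fold change 1.39, standard error 0.11, limma with Benjamini-Hochberg adjusted P = 1.2e-08), *Ifitm2* from 47.2 to 259 CPM and *Ifitm3* from 2.66 to 41.2 CPM. These 3 are neighbours on chromosome 7 between 140954837 and 141010770, and how the counting split reads between such similar copies is uncertain. *Trim30a* rose from 3.85 to 34.2 CPM and the GTPase gene *Igtp* from 5.50 to 24.9 CPM. Of 22 MHC class I genes *Tapbp* rose from 102 to 223 CPM. *Tap2* fell from 205 to 91.6 CPM, but its value of 15.4 CPM in Phase 1 replicate 3 was far below the others, and without that library the log2 fold change was -0.62 and not called. Leaving out any one of the LP libraries ended the call of *Tap2* as well.

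Lists of proliferation and biosynthesis held between 0 and 2 called genes each, where 3.39% of all genes tested were called. Of 59 replication and mitosis genes 1, *Cdc20*, was called, lower, from 199 ± 7.92 to 97.6 ± 42.5 CPM, and not without Phase 1 replicate 3 (log2 fold change -0.74). Of the 59, 13 passed the adjusted P value alone, against 6.48% of all genes tested. In 17 every Phase 1 library was lower and in 10 higher, against 12.1% and 9.77% of all genes tested. None of 18 G1 genes passed all thresholds; *Ccnd2*, which encodes cyclin D2, went from 537 ± 53.5 to 996 ± 76.9 CPM and *Cdk6* from 858 ± 99.7 to 1147 ± 99.4 CPM, both higher in every Phase 1 library but under 2-fold (limma, Benjamini-Hochberg adjusted P = 3e-05 and 0.018). Of 53 Myc network and ribosome genes *Mxd4*, a Myc antagonist, was called, lower, from 226 to 93.3 CPM. Most of the list leaned the other way, under the thresholds. Of the 53, 40 had a log2 fold change above 0, and the median was 0.22 against -0.07 over all genes tested. In 11 every Phase 1 library was higher and in 2 lower, against 9.77% and 12.1% of all genes tested. No gene of 33 in sterol and fatty acid synthesis or of 28 in the amino acid response was called, with medians of -0.06 and -0.06; *Hmgcs1* was 445 CPM in LPs and 453 CPM in Phase 1 cells, *Scd2* 778 CPM in LPs and 632 CPM in Phase 1 cells, *Atf4* 354 CPM in LPs and 361 CPM in Phase 1 cells and *Nars* 369 CPM in LPs and 378 CPM in Phase 1 cells. Of 32 glycolysis and hypoxia genes *Egln3* rose from 36.4 to 88.4 CPM, not so without Phase 1 replicate 3 (log2 fold change 0.97), and *Vegfa* fell from 129 to 57.6 CPM.

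Several genes that promote cell death fell. Among 16 Bcl2 family genes *Bmf*, *Bbc3* and *Pmaip1*, which all encode BH3-only proteins that promote cell death, were called lower and none higher (1.74% and 1.65% over all genes tested), *Bmf* only with LP replicate 1 in the fit. *Bbc3*, which encodes PUMA, fell from 30.7, 40.9 and 36.0 CPM to 8.47, 11.6 and 8.07 CPM (log2 fold change -1.83, standard error 0.30, limma with Benjamini-Hochberg adjusted P = 0.00028). *Pmaip1* fell from 35.2 to 16.1 CPM, and without Phase 1 replicate 3 its log2 fold change was -0.91 and not called. *Bbc3* and *Pmaip1* are also p53 targets, of which 28 were tested and *Xpc*, a DNA repair gene, was the other one called, lower, from 209 to 78.1 CPM. Of 34 AP-1 and immediate early genes 4 were called lower and 2 higher. *Dusp5*, a phosphatase gene that ERK signals induce, rose from 63.0 to 145 CPM and *Zfp36l1*, which encodes an RNA-decay factor, fell from 73.8 to 31.6 CPM. *Nfkbia*, which encodes the NF-κB inhibitor IκBα, fell from 616, 558 and 524 CPM to 283, 249.7 and 80.7 CPM, and without Phase 1 replicate 3 the log2 fold change was -1.08 in place of -1.65.

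Smaller families were mixed, where 1.65% of all genes tested were called higher and 1.74% lower. Of 13 E protein and Id genes 1, *Hes1*, was called higher. Of 23 TNF receptor genes 1, *Tnfrsf9*, was called higher, and of 12 *Gimap* and *Ly6* genes *Ly6a* and *Ly6d* were. Of the 28 genes of the RUNX, CTCF, cohesin and Mediator group, *Runx2* alone was called; *Cbfb* was 86.5 CPM in LPs and 66.5 CPM in Phase 1 cells, *Ctcf* 369.5 CPM in LPs and 405 CPM in Phase 1 cells, and *Med12* had 27 reads in LPs and 17 in Phase 1 cells. *Tpm2*, the one called gene of 11 tested on the OP9 stromal list, fell from 109 to 19.4 CPM. The 8 OP9 markers together were 8.99 to 11.8 CPM in LPs and 9.54 to 25.2 CPM in Phase 1 cells. Which cells the *Tpm2* reads came from was not tested.

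**Figure D4:**
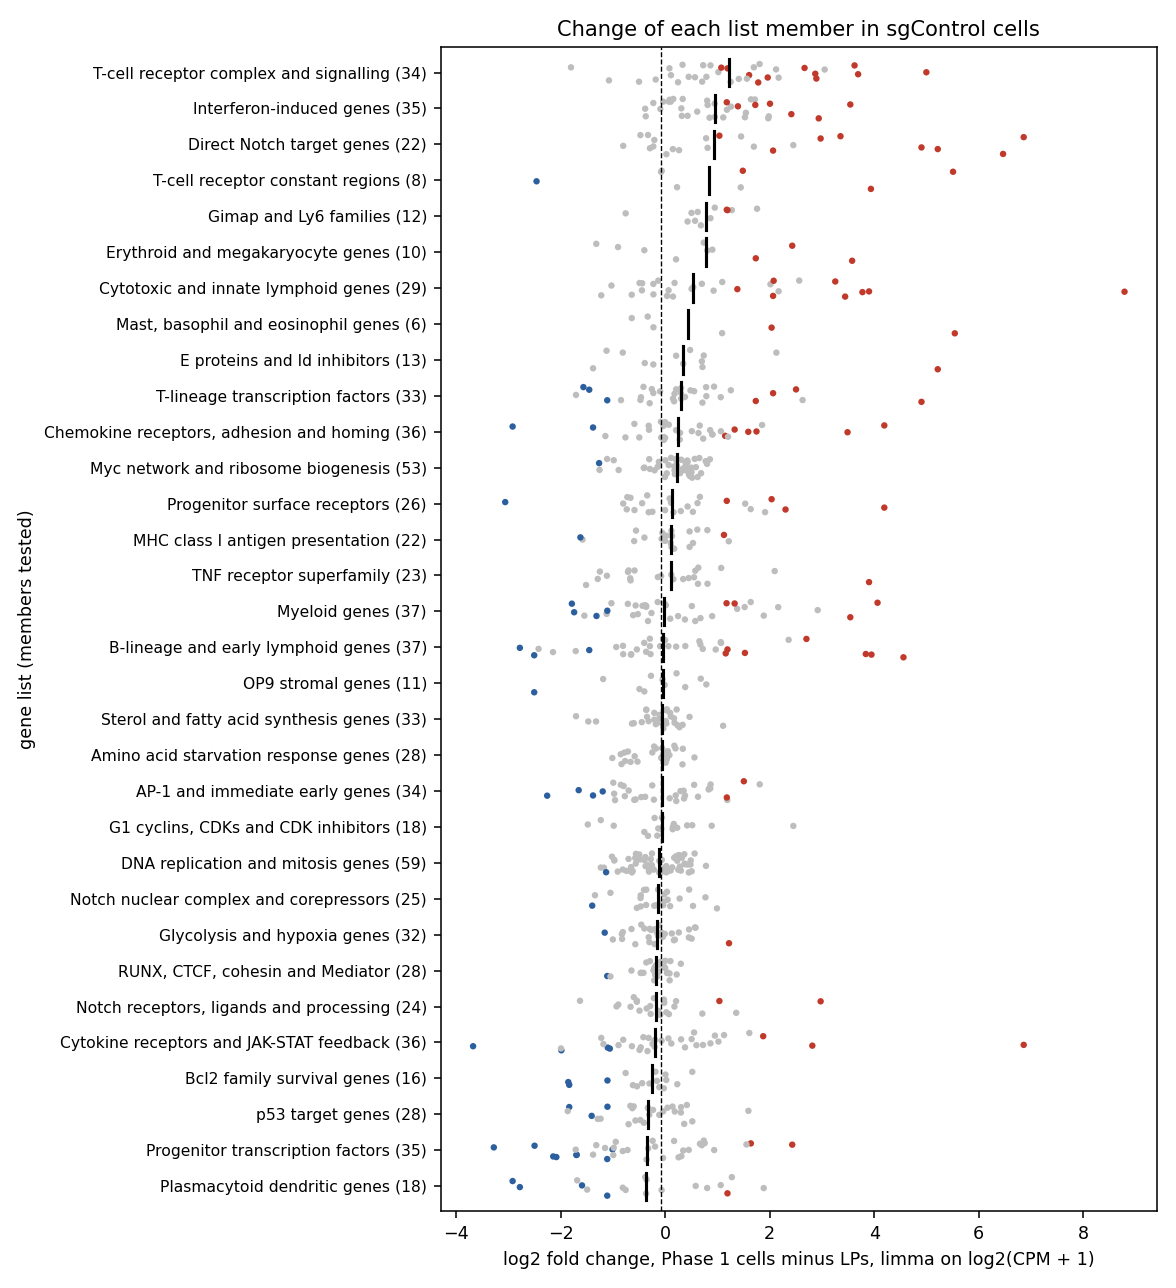
Log2 fold change (limma on log2(CPM + 1), Phase 1 cells minus LPs) of each tested member of 32 gene lists, with the number tested in brackets and lists ordered by median. Red members were called higher, blue lower and grey not called; black bars are list medians and the dashed line, at -0.07, is the median of all 13239 genes. Medians run from 1.22 for T-cell receptor signalling to -0.37 for plasmacytoid dendritic genes.

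Further large changes lay outside these lists. Among genes with reads in every library, the largest falls by log2 fold change were in *Igf1* (ENSMUSG00000020053, chromosome 10, 87858265 to 87937042), which encodes insulin-like growth factor 1, from 109, 91.6 and 72.6 CPM to 3.53, 3.87 and 5.13 CPM (log2 fold change -4.15, standard error 0.27, limma with Benjamini-Hochberg adjusted P = 7.1e-10), then in *Pim2* and *C1ql2*, the latter from 240.2, 208 and 210.0 CPM to 12.7, 18.1 and 22.7 CPM. *Creb5* fell from 65.3 to 5.75 CPM, *Kank2* from 54.7 to 5.24 CPM and *Jchain*, which encodes the immunoglobulin joining chain, from 778 to 94.3 CPM. *Foxp1*, a forkhead factor of lymphoid cells, lost most CPM after *Socs2*, from 1371 to 482 CPM. *Serinc5* fell from 26.0 to 3.22 CPM, *Il1rap*, a chain of the IL-1 receptor, from 14.2 to 1.82 CPM (not called without LP replicate 1 or LP replicate 2) and the predicted gene *Gm29684* from 24.5 to 3.18 CPM. Of the rises, *Angpt1*, which encodes angiopoietin 1, went from 2.36, 2.48 and 2.57 CPM to 86.8, 65.8 and 84.4 CPM, *Ston2* from 4.74 to 109.8 CPM and *Tmem121* from 10.4 to 193 CPM. *Khdc1a* had no LP read and 86.8, 113 and 99.8 CPM in Phase 1 cells, at least 163-fold higher than the 3 reads over the LP group that a count of 0 allows. It stands next to the similar *Khdc1c*, which also had no LP read and rose to 14.3 CPM. *Gm19696*, a predicted gene, rose from 4 reads to 77.8 CPM. *Morc1*, *Tph1* and *Lvrn* were among the genes that fell to 3 reads or fewer in each Phase 1 library, from 12.4 to 15.2 CPM in LPs, and *Lvrn* was not called without LP replicate 1.

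Called genes sometimes lay side by side. Among 13205 neighbouring pairs of tested genes 38 had both members called, 33 of them in the same direction. Of the 449 called genes 59 (13.1%) had such a neighbour. The matching share over all genes tested was not counted, so this is a description. Besides the *Tcrb* and *Ifitm* genes, the runs of 3 were *H2-Ab1*, *H2-Aa* and *H2-Eb1* on chromosome 17, *Gm12250*, *Igtp* and *Irgm2* on chromosome 11, *Crip1*, *Tedc1* and *Tmem121* on chromosome 12, *Heg1*, *Gm15657* and *Muc13* on chromosome 16, all higher, and *Hoxa7*, *Hoxa9* and *Hoxa10* on chromosome 6, all lower. These were named after their values were seen, and overlapping or similar genes are among them.

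The LP side of the comparison could be set beside LPs of the second experiment, which also carried sgControl. Its values were scaled in a separate table, so they are given as levels with no test. In 210 (96.3%) of the 218 higher genes each of those 3 LP libraries lay below each Phase 1 library, and in 210 (90.9%) of the 231 lower genes above it. Over all genes tested the shares were 12.3% and 17.1%. The genes were called on the same Phase 1 libraries, so these shares are in part built in. *Gzma* was 0.524 ± 0.250 CPM there (SD, n = 3), *Il2ra* 0.845 ± 0.734 CPM, *Flt3* 276 ± 11.7 CPM and *Hoxa9* 746 ± 55.5 CPM. *Ccr9*, at 534 ± 94.0 CPM, and *Igf1*, at 45.7 ± 13.4 CPM, were lower in those LPs than in the LPs of the first experiment and still above Phase 1 cells.

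Fewer genes were called after the same stimulation in sgCbfb cells, in which *Cbfb*, whose product is the partner of RUNX factors on DNA, was targeted. There 98 genes (0.74%) were called higher and 60 (0.453%) lower in Phase 1 than in LP cells. Of the genes called in sgControl cells, 43 (19.7%) of the 218 higher and 31 (13.4%) of the 231 lower were also called in sgCbfb cells, and none was called in the opposite direction. Turned round, these are 43.9% and 51.7% of the genes called in sgCbfb cells. A missing call is no test of a difference, so the interaction of stage and sgRNA was tested in the same limma fit. It passed a Benjamini-Hochberg adjusted P value of 0.05 in 168 (1.27%) of all genes and in 105 of the 449 called in sgControl cells. The log2 fold change was smaller in sgCbfb cells in 53 of the 55 higher genes among these and in all 50 lower genes. The same sgControl libraries made the call and entered the interaction, so a shift to smaller changes is in part built in, and these counts are a description.

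The interaction was called for some Notch targets and not for others. *Il2ra* rose by 6.86 on the log2 scale in sgControl cells and by 2.48 in sgCbfb cells, where it went from 20.2 to 115 CPM (limma interaction, Benjamini-Hochberg adjusted P = 7.7e-06). *Tcf7* went from 4.83 to 12.7 CPM in sgCbfb cells and *Gata3* from 36.9 to 43.2 CPM, and both interactions passed (limma, Benjamini-Hochberg adjusted P = 0.007 and 0.0005). *Hes1*, from 4.57 to 95.7 CPM in sgCbfb cells, *Dtx1*, from 0.711 to 42.8 CPM, and *Nrarp*, from 1.91 to 116 CPM, rose in both, and the interaction was not called (limma, Benjamini-Hochberg adjusted P = 0.65, 0.31 and 0.13). For *Dtx1* the interaction was 1.73 (standard error 0.66), near the 1.85 of *Gata3* (standard error 0.27), and for *Hes1* 0.98 (standard error 0.65). A P value above the threshold does not show that the rises were equal.

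Genes of the *Tcrb* locus rose in sgCbfb cells as well. *Prss2* went from 0.904 to 256 CPM and *Trbc2* from 31.2 to 592 CPM in sgCbfb cells, and the interactions were 0.11 and -0.33 (limma, Benjamini-Hochberg adjusted P = 0.97 and 0.74). *Gzma* rose from 1.84 to 85.9 CPM, less than in sgControl cells (interaction 3.66, limma with Benjamini-Hochberg adjusted P = 0.00074). *Cd3g* was 1.84 and 2.51 CPM in sgCbfb LPs and Phase 1 cells. On the falling side *Mef2c*, at 1067 and 936 CPM, and *Hoxa9*, at 738 and 564 CPM, had interactions of -1.51 and -1.31. *Ly6d* and *Cdh1*, the latter named after its values were seen, had larger log2 fold changes in sgCbfb cells, *Ly6d* from 1.37 to 33.8 CPM and *Cdh1* from 0.711 to 70.7 CPM against 19.2 to 205 CPM in sgControl cells.

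**Figure D5:**
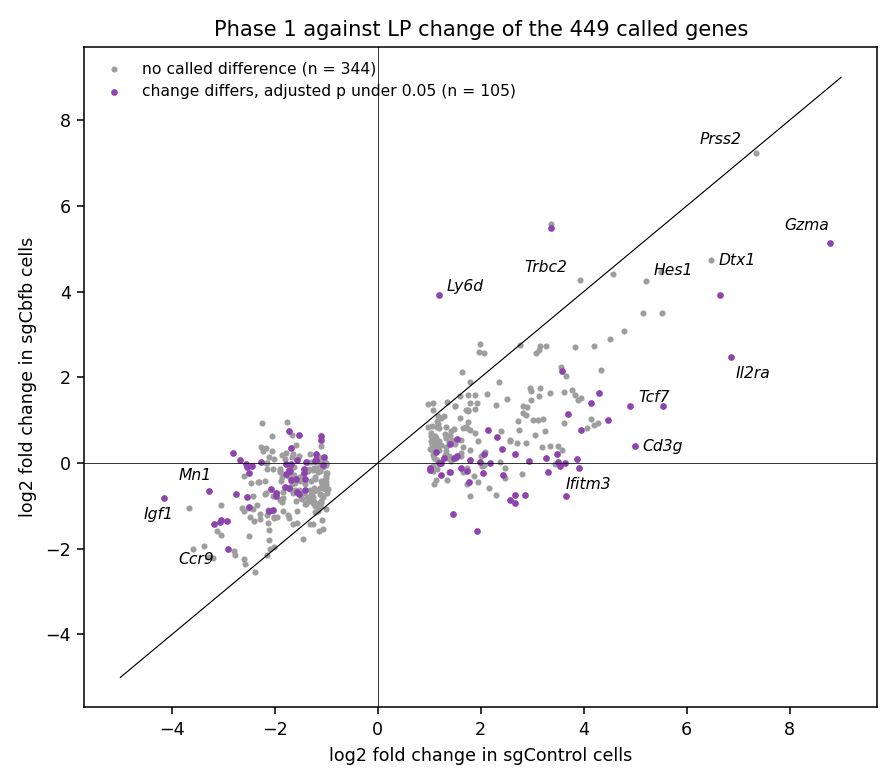
Log2 fold change of Phase 1 cells against LPs in sgControl cells (x axis) and in sgCbfb cells (y axis), both from limma on log2(CPM + 1), for the 449 genes called in sgControl cells, with the line of equal change. Purple marks the 105 genes whose change differed between the sgRNAs; all of these but *Cdh1* and *Ly6d* had the smaller change in sgCbfb cells, while *Prss2* and *Trbc2* lie on or near the line. The x axis values chose the genes.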

How the data were processed

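QuantSeq 3′ mRNA-seq libraries were trimmed with fastp and mapped to mm10 with STAR by the authors, who deposited one value per gene and library. The deposited values are named TPM, but they are CPM, truncated to 3 decimals, and whole reads were recovered for 100.0% of them in the libraries used here. The counting tool and its strand setting are not given in the sources used here, and a line without an identifier was not used. Genes that reached 1 CPM in 3 or more of the experiment's 12 libraries entered limma 3.58.1 (R 4.3.3) as log2(CPM + 1), all 4 groups in one fit, with trended variances and Benjamini-Hochberg adjustment over all 13239 genes, and were called by the thresholds of the study. Exact permutation of 3 libraries against 3 cannot give a two-sided P value under 0.1. Named genes are key genes set for each list, the 12 largest rises and falls among genes with reads in every library, up to 6 genes at 3 reads or fewer per library in one group, the 6 largest gains and losses in CPM, and up to 4 members per list. Other genes named in the text, among them further called list members and neighbours of named genes, were chosen after their values were seen. The members of the comparison, the lists and the rule were chosen with earlier results of these data known. Alternatives were pseudocounts of 0.1 and 5, other filters, scalings and thresholds, edgeR 4.0.16 on the recovered reads, the replicate number as a block, and each library left out. The scripts were tested on simulated data. Positions are from GENCODE M21, on GRCm38.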

Additional observations from a re-analysis of the deposited data

Results flagged for a closer look

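Of the 91 genes named and called, 41 changed to a different extent with stage in sgControl than in sgCbfb cells (limma interaction on the log2(CPM + 1) scale, Benjamini-Hochberg adjusted P under 0.05). The interaction passed in 168 (1.27%) of all genes tested and in 105 of the 449 called. Many of the 91 were picked for large changes in these same sgControl libraries. Smaller changes in sgCbfb cells are therefore in part built in. The values below are the sgControl log2 fold change minus that in sgCbfb cells. For a rising gene a positive value is a smaller log2 rise in sgCbfb cells. For some genes the LP level itself differed between sgControl and sgCbfb cells: *Lcp2* 2.67 and 30.4 CPM, *Kit* 30.2 and 97.1 CPM, *Ccr9* 989 and 235 CPM. *Lcp2* reached 41.8 CPM in sgControl and 68.5 CPM in sgCbfb Phase 1 cells. For others it was near, as for *Tcf7* (4.52 and 4.83 CPM) and *Gata3* (33.2 and 36.9 CPM). Among rising genes the difference was widest for *Cd3g* (4.61), *Il2ra* (4.38), *Cpa3* (4.21), *Tnfrsf9* (4.02), *Gzma* (3.66), *Ifitm3* (3.60) and *Tcf7* (3.58). It was from 2 to 3 for *Trim30a* (2.89), *Tmem121* (2.74), *Khdc1a* (2.73), *Nfe2* (2.72), *Ston2* (2.67), *Lcp2* (2.55), *Kit* (2.28) and *Ifitm2* (2.08), and under 2 for *Zfpm1* (1.91), *Gata3* (1.85), *Ifitm1* (1.61), *Hbb-bt* (1.42), *Trgc4* (1.37), *Ly6a* (1.17) and *Tapbp* (0.87). Among falling genes it was *Igf1* (-3.33), *Mn1* (-2.62), *Adgre1* (-1.77), *Kank2* (-1.75), *Runx2* (-1.73) and *Jchain* (-1.71), and then *Flt3* (-1.69), *Pmaip1* (-1.65), *Mef2c* (-1.51), *Ighm* (-1.48), *Hoxa10* (-1.48), *Zfp36l1* (-1.41), *Hoxa9* (-1.31), *Socs2* (-1.28), *Cox6a2* (-1.22), *Ccr9* (-0.91), *Satb1* (-0.89) and *Foxp1* (-0.80); each fell less in sgCbfb cells or did not fall. *Ly6d* (-2.72) had the larger log2 fold change in sgCbfb cells, but from a far lower LP level, and it gained fewer CPM there. The cause of these differences was not tested.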

How the results depend on the processing

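The counts of 218 higher and 231 lower genes stayed within 1.5 times under most alternatives. They were 256 and 232 with edgeR's TMM, 258 and 230 with RLE size factors on the recovered reads, and 249 and 202 with median-of-ratios scaling, which moved the median change of all genes from -0.07 to -0.01. Without the fold threshold 345 genes were higher and 381 lower, and without moderated variances 174 were higher and 147 lower. With only the sgControl groups in the fit 194 were higher and 154 lower, and 341 of the 449 calls were shared. Leaving out one library gave 183 to 235 higher and 148 to 361 lower genes, the lowest lower count without LP replicate 1 and the highest without Phase 1 replicate 1; without Phase 1 replicate 3 it was 218. The share of higher among called genes, 218 of 449, became 57.2% without LP replicate 1, and 37.7% and 39.0% without Phase 1 replicates 1 and 2. The 105 called genes whose change differed in sgCbfb cells became 43 without moderated variances and 72 to 132 with one library left out. With the mitochondrial genes and the most abundant gene taken out of each library's total, an alternative chosen after seeing the data, 239 and 236 were called.

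Replicate numbers paired the samples weakly: deviations of same-numbered LP and Phase 1 libraries correlated at 0.046, 0.028 and 0.108, and those with different numbers at -0.091 to 0.064, so they were not treated as pairs. With the replicate block 222 genes were higher and 250 lower, and 117 of the called genes differed in sgCbfb cells. The block changed no call of a named gene.

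Of 91 named genes called, 73 kept the call under every alternative 18 lost it under at least one, 11 of these when a single library was left out, and none reversed. The genes that reversed sign were not called. With one library left out, *Ctcf* was -0.092 to 0.28, *Myc* -0.64 to 0.076, *Nars* -0.11 to 0.15, *Hhex* -0.036 to 0.49, *Atf4* -0.092 to 0.14 and *Hmgcs1* -0.052 to 0.13 on the log2 scale. The cause of these shifts was not tested. Depth limits genes under about 2 CPM, where 1 library holds 3 reads or fewer.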
